A study of Mus musculus with 9 samples.

Results

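The SREBP pathway was followed through 31 genes that make cholesterol and fatty acids or control that synthesis, out of 52636 rows of a deposited count table, in endothelial cells sorted from mouse liver. The genes were chosen by name, with earlier results of these data known. They were 18 enzymes of sterol synthesis, 5 genes that control the SREBP factors, the sterol carrier gene Stard4, and 7 genes of fatty acid synthesis. All 31 were found and all 31 passed the filter on low counts, among 14583 genes tested. RNA came from 9 libraries, 4 controls labelled wild type and 5 whose genotype label is a double knockout of Erg and Fli1. The labels say that all mice received tamoxifen and that liver cells were taken at day 7. The cells were live, CD45-negative, CD31-positive and bound by a VE-cadherin antibody given in vivo, and no source used here names the Cre driver, the deleted exons or the strain.

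Sterols are built from acetyl-CoA, first into mevalonate and isoprenoid units, then into squalene, and then through a series of ring-forming and demethylating steps into cholesterol. SREBP proteins, encoded by Srebf1 and Srebf2, are membrane-bound transcription factors that Scap carries from the endoplasmic reticulum to the Golgi, where proteases release the active part, and that Insig proteins hold back when sterols are plentiful. The Srebf2 product is best known for driving genes of sterol synthesis and the Srebf1 product for driving genes of fatty acid synthesis. Hepatocytes are the main sterol-making cells of the liver, while endothelial cells can both make sterols and take them up from lipoproteins.

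The libraries held between 26791371 and 36401682 counts. Values are CPM, counts relative to the TMM-scaled library total, and errors are SDs except where SE is written. Of the targeted genes, Erg fell from 311.6 ± 17.8 CPM (n = 4) to 142.9 ± 10.9 CPM (n = 5), but Fli1 rose from 100.1 ± 8.01 to 147.4 ± 22.5 CPM, so the text speaks of libraries labelled knockout, and every direction is relative to that label. Of the proteins of the sort, Cdh5 (2190 ± 113 and 2158 ± 193 CPM) and Pecam1 (1482 ± 97.9 and 1408 ± 164 CPM) were abundant in all libraries. Of the 8 endothelial markers, 2 fell without overlap, Tie1 from 1215 ± 34.2 to 600.6 ± 57.6 CPM and Tek from 916.2 ± 57.6 to 604 ± 138 CPM, and 6 did not pass. Among those 6, Lyve1, a marker of liver sinusoidal endothelium, lay between 814.9 and 1191 CPM in the controls and at 14.5, 937.3, 259.7, 29.5 and 28.1 CPM in labelled knockout replicates 1 to 5. On the second principal component, which held 17.5% of the variance, labelled knockout replicates 2 and 3 lay at 55.6 and 28 and the other 3 between -48.6 and -10.6. Calls that ended without those 2 libraries are given with their value without them. In bulk RNA, fewer cells of a type and less RNA per cell cannot be told apart.

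Sterol enzyme transcripts fell in the libraries labelled knockout, whereas those of fatty acid synthesis had no common direction. Of the 31 genes, 14 fell, 4 rose and 13 did not pass an adjusted p of 0.05 in edgeR's quasi-likelihood test. That is 45.2% lower and 12.9% higher, beside 14.8% lower and 14.5% higher (29.3% in all) of all genes tested. Because the genes were chosen with earlier results of these data known, the difference from all genes is a description and not an independent test. The median log2 fold change was -0.41 for the 31 genes and 0.01 for all genes tested. Of the 18 sterol enzymes, 10 fell and 0 rose, the same counts as by DESeq2 and by limma-voom. At an unadjusted p under 0.05 the counts were again 10 lower and 0 higher. The share of all genes at that threshold was not counted, and it is at least the share called. Of the 18, 7 were lower without overlap between the 2 groups and 0 were higher, beside 13.8% and 13.2% of all genes tested. By DESeq2 34.5% of all genes were called (17.1% lower, 17.5% higher) and by limma-voom 29.1% (15.6% lower, 13.5% higher). The median log2 fold change of the 18 was -0.66, and -0.67 without labelled knockout replicates 2 and 3.

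Promoter sequence was looked at for all of the 31 genes with an entry. The sequences below are from RefSeq (build GRCm38.p6) and read 5′ to 3′ on the gene's strand. Hmgcs1, Sc5d, Insig1 and Srebf2 were picked because they fell and carry some of the letters marked below. Being picked in this way, they cannot show what sets the genes that fell apart. Each runs from 250 bases before the start annotated in RefSeq up to that start, or up to the first base of an exon in GENCODE where that comes sooner. For Hmgcs1 and Sc5d the RefSeq start lies upstream of the first base of the gene in GENCODE (119690379 and 42264256). For Sc5d, the bases checked after that start were not found in a GENCODE transcript. Capitals mark the sterol response element-like letters TCACNCCA, the CCAAT box (CCAAT, bound by NF-Y) and the E-box CACGTG, on either strand, so that ATTGG is a CCAAT box on the other strand.
Hmgcs1, chr13:119690101-119690350, plus strand: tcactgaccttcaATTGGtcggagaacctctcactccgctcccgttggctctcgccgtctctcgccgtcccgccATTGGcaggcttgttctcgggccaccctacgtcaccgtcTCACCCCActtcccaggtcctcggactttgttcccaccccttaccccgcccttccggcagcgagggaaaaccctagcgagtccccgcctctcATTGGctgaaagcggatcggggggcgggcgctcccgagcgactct
Sc5d, chr9:42264301-42264550, minus strand: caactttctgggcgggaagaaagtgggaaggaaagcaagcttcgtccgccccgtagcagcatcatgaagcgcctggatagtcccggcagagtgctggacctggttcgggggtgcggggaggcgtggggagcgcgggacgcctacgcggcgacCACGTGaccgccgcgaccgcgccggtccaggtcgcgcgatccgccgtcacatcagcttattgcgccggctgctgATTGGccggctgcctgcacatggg
Insig1, chr5:28071162-28071362, plus strand: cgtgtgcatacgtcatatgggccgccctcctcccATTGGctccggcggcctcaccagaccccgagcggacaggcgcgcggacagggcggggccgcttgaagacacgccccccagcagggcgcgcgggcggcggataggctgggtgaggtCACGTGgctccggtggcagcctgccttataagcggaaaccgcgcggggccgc
Srebf2, chr15:82147019-82147180, plus strand: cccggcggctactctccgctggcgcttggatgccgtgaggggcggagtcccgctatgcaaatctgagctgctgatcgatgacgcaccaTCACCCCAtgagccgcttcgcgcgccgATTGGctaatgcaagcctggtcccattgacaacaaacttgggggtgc

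Hmgcs1 held 1 sterol response element-like match and 3 CCAAT boxes, and Srebf2 held 1 of each. Sc5d and Insig1 each held 1 E-box and 1 CCAAT box, and 0 sterol response element-like matches. Over the full 250 bases, 25 of the 31 genes had an entry (6 of them with more than 1 start, any of which was counted). A CCAAT box was found for 20 of the 25, beside 37.5% of the 27025 genes with an entry, and these were 10 of 11 genes that fell, 1 of 3 that rose and 9 of 11 that were not called. TCACNCCA was found for 3 of the 25 (Hmgcs1, Msmo1 and Srebf2, all lower), beside 4.2% of all genes. CACGTG was found for 5 of the 25, beside 6.86%, and these were 4 of 11 genes that fell, 1 of 3 that rose (Scap) and 0 of 11 not called. The ETS core CGGAAG was found for 5 of the 25 (Dhcr7, Hmgcs1, Insig2, Pmvk and Srebf2), beside 15.3% of all genes. These were 4 of 11 genes that fell, 0 of 3 that rose and 1 of 11 not called. TCACNCCA and CCAAT can share the letters CCA. A match is a string of letters in this window and does not show binding.

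The mevalonate steps turn acetyl-CoA into the isoprenoid units that sterols are built from, and 4 of these 7 genes fell. Hmgcs1 (chromosome 13, 119690379 to 119708260, plus strand, GRCm38, as for all gene positions here) makes HMG-CoA, the precursor of mevalonate. It lay at 47.1, 43.4, 37.3 and 47.1 CPM in control replicates 1 to 4 and at 33.5, 29.3, 31.7, 31.6 and 30.5 CPM in replicates 1 to 5 of the libraries labelled knockout. All 5 lay below the lowest control, and the log2 fold change was -0.48 ± 0.08 (SE, edgeR adjusted p = 0.00237). Pmvk, which adds the second phosphate to mevalonate, fell from 9.42 ± 1.52 to 5.09 ± 1.04 CPM, 1.85-fold, also without overlap. Mvk and Mvd, the kinase before it and the decarboxylase after it, did not pass the test, with log2 fold changes of 0.08 ± 0.19 and 0.44 ± 0.23 (SE).

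Idi1, the isopentenyl diphosphate isomerase, and Fdps, which joins the units into farnesyl diphosphate, fell from low levels. Idi1 went from 1.61 ± 0.604 to 0.690 ± 0.271 CPM (log2 -1.22 ± 0.37, SE) and Fdps from 0.925 ± 0.232 to 0.474 ± 0.139 CPM (log2 -0.97 ± 0.30, SE), each with overlap between the groups and with 205 and 119 control counts in all. The Idi1 call ended without control replicate 1, 2 or 4 or labelled knockout replicate 2, 3 or 5 (edgeR adjusted p between 0.0536 and 0.102), and the Fdps call without control replicate 1, 2 or 4 or labelled knockout replicate 1, 2 or 3 (0.0636 to 0.116). Without labelled knockout replicates 2 and 3 together the log2 values were -0.97 for Idi1 and -0.74 for Fdps (edgeR adjusted p = 0.0931 and 0.138). Fdps also shares 1124 exon bases with the gene model Gm43738, which has 0 counts in the table, so reads of the shared part may have been left uncounted. Acat2, which joins 2 acetyl-CoA units, lay at 3.49 ± 0.695 and 2.63 ± 0.484 CPM and did not pass (log2 -0.41 ± 0.21, SE).

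The enzymes that make squalene and turn it into cholesterol included the largest falls, with 6 of 11 genes lower and 0 higher. Cyp51 (chromosome 5, 4081145 to 4104746, minus strand), the demethylase that acts on lanosterol, lay at 7.98, 5.43, 4.22 and 4.43 CPM in the controls and at 2.08, 1.42, 1.27, 1.69 and 1.44 CPM in the libraries labelled knockout. The 2 groups were apart, 3.49-fold (log2 -1.80 ± 0.24, SE, edgeR adjusted p = 0.000616). Dhcr7 (chromosome 7, 143823145 to 143848410, plus strand), which carries out the last reduction to cholesterol, lay at 18.8, 15, 11.3 and 12.9 CPM and at 6.10, 4.01, 4.63, 5.27 and 5.01 CPM. It was 2.89-fold lower, again with no overlap (log2 -1.53 ± 0.17, SE, adjusted p = 0.000246).

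Sc5d (chromosome 9, 42251595 to 42264256, minus strand), the desaturase just before Dhcr7, lay at 18.9, 17.5, 14.3 and 15 CPM and at 4.83, 6.17, 5.09, 9.32 and 6.14 CPM. It was 2.61-fold lower (log2 -1.38 ± 0.19, SE, adjusted p = 0.000751), with labelled knockout replicate 4 the nearest to the controls. Between these enzymes, Msmo1, which removes methyl groups from the sterol ring, fell from 17.5 ± 2.36 to 9.92 ± 1.96 CPM, and Hsd17b7, a ketoreductase of the same complex, fell from 5.18 ± 0.700 to 3.14 ± 0.543 CPM, both without overlap. Sqle, the squalene epoxidase, fell from 2.12 ± 0.963 to 0.803 ± 0.210 CPM (log2 -1.39 ± 0.36, SE), a call that ended without control replicate 1 (edgeR adjusted p = 0.0542).

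The other 5 genes of this arm did not pass the test, and 4 of them had negative values. Fdft1, the squalene synthase, had a log2 fold change of -0.38 ± 0.18, Ebp, the sterol isomerase, -0.34 ± 0.16, and Tm7sf2, a sterol reductase, -0.27 ± 0.14 (SE). Lss, which closes the first sterol ring system, had -0.60 ± 0.31 and passed without labelled knockout replicate 2 (edgeR adjusted p = 0.0456), and Fdft1 passed without replicates 2 and 3 (0.0242). Nsdhl, a sterol dehydrogenase, lay at 10.6 ± 0.490 and 11.4 ± 1.16 CPM, so the arm did not move as one block. Cyp51 shares 166 exon bases with Akap9 on the other strand, Fdft1 shares 774 with Ctsb on the other strand, and Tm7sf2 shares 532 with Vps51 on its own strand, which could blur each of them if the counting did not separate them.

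**Figure D1:**
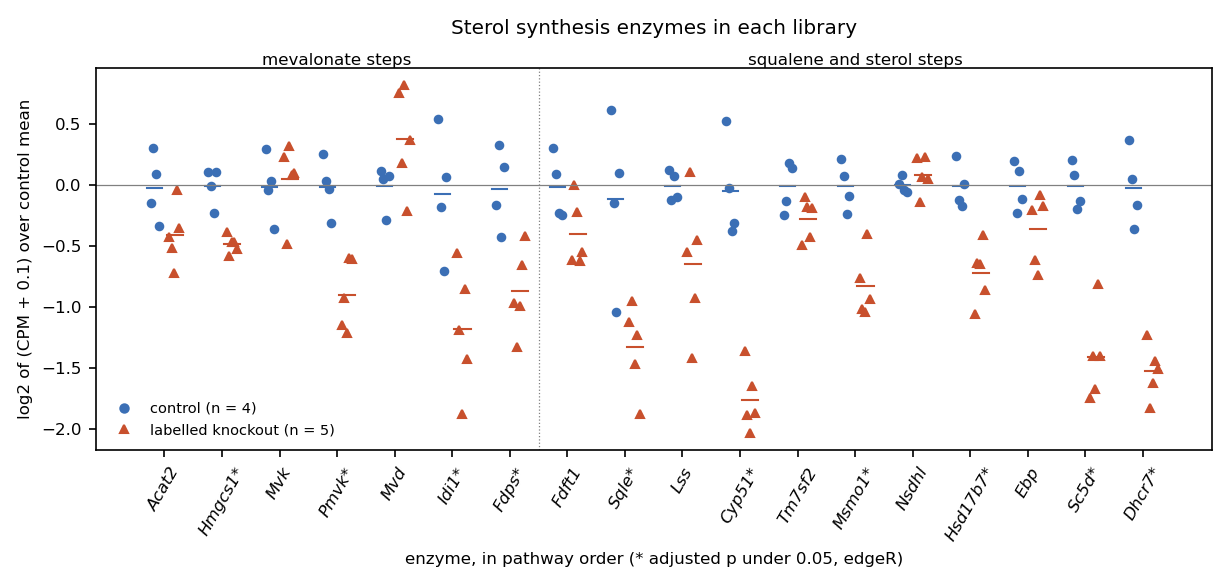
Level of each of the 18 sterol enzymes in every library, as log2 of CPM plus 0.1 over the control mean, in pathway order. Circles are the 4 controls, triangles the 5 libraries labelled knockout, bars the group means of these log2 values, and a star marks an adjusted p under 0.05; Cyp51, Sc5d and Dhcr7 lie furthest below 0 without overlap, while Mvk, Mvd and Nsdhl lie around or above 0.

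Summed over the 18 enzymes, the controls held 218.5, 190.5, 174.1 and 182.3 CPM and the libraries labelled knockout 134.1, 121.0, 124.1, 140.4 and 130.1 CPM. The mean of the latter was 67.9% of the control mean. Control replicate 1 was the highest of all, and labelled knockout replicate 4 came nearest to the controls. Hepatocyte markers other than Ass1 were also lower in the libraries labelled knockout. Without Ass1, 11 of them summed to 386.0, 247.1, 213.8 and 168.2 CPM in the controls and to 140.8, 100.1, 114.2, 213.9 and 23.5 CPM in labelled knockout replicates 1 to 5, so that all but replicate 4 lay below the lowest control. The mean of this sum in the libraries labelled knockout was 46.7% of the control mean. Each of the 11 had a negative log2 fold change, from -2.1 (Cyp3a11) to -0.45 (Hnf4a). Of the 12 markers on the list, 2 passed the threshold as lower (Apoa2 with overlap and Tat without). Ass1, the urea cycle enzyme, rose without overlap and was set aside after its value was seen. None of the 12 was at 0 in all libraries. Replicate 4 of the libraries labelled knockout had the highest hepatocyte sum and the highest enzyme sum of its group (213.9 and 140.4 CPM). Control replicate 3 had a hepatocyte sum of 213.8 CPM and the lowest enzyme sum of the controls (174.1 CPM). This pair is 1 library of each group, and the part of hepatocyte RNA in the enzyme sums was not tested. Alb made up most of both hepatocyte sums (158.5 and 148.0 CPM). Other markers of this pair differed in both directions, such as Apoa1 (11.2 and 5.2 CPM) and Cps1 (4.23 and 8.16 CPM).

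Markers of macrophages and Kupffer cells, the resident macrophages of the liver, summed to between 87.8 and 393.0 CPM in the controls and between 78.5 and 550.1 CPM in the libraries labelled knockout. None of the 8 passed the test, and the 2 libraries with the highest sums were labelled knockout replicate 2 and control replicate 1. Their enzyme sums were the lowest and the highest of the 9. Stellate cell, cholangiocyte, erythroid and lymphocyte marker sums overlapped between the groups, and the 6 adipocyte markers summed to at most 0.11 CPM. The 8 endothelial markers summed to between 17297 and 18317 CPM in the controls and between 12336 and 16741 CPM in the libraries labelled knockout, with 2 of 8 called lower. Platelet and megakaryocyte markers summed to between 23 and 36.6 CPM in the controls and between 63.8 and 136.7 CPM in the libraries labelled knockout, and 4 of 6 were called higher, among them Pf4, 8.97-fold. The part of other cells in the sterol result was not tested beyond these values.

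**Figure D2:**
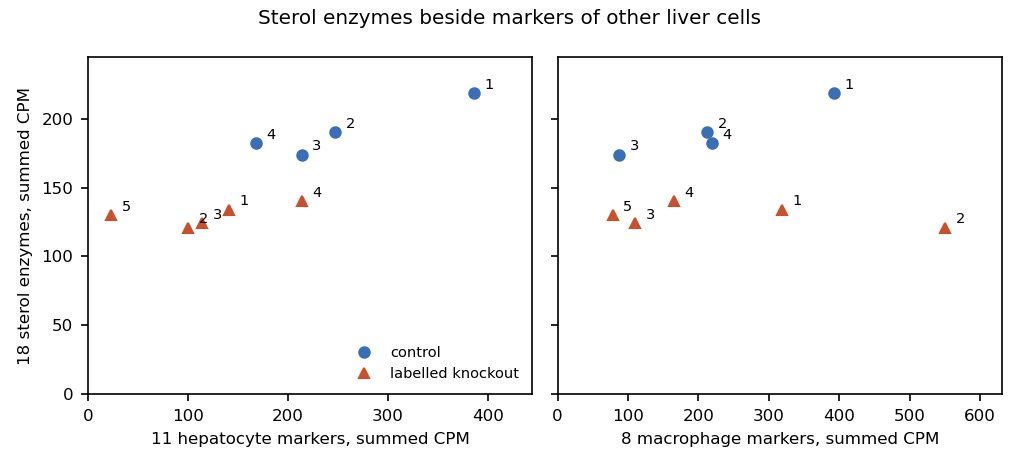
Summed CPM of the 18 sterol enzymes (vertical axis) against the summed CPM of 11 hepatocyte markers (left) and 8 macrophage markers (right), 1 point per library with its replicate number. The controls (circles) lie between 174.1 and 218.5 CPM of enzymes and the libraries labelled knockout (triangles) between 121.0 and 140.4 CPM, while the marker sums of the groups overlap, for hepatocytes only through labelled knockout replicate 4.

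Among the control genes, Srebf1 and Srebf2 moved in opposite directions. Srebf2 (chromosome 15, 82147181 to 82205379, plus strand) lay at 119.9, 92.4, 94.1 and 92.0 CPM in the controls and at 80.7, 51.0, 53.3, 69.7 and 62.6 CPM in the libraries labelled knockout. The fall was 1.57-fold (log2 -0.65 ± 0.14, SE, edgeR adjusted p = 0.00816). Srebf1 (chromosome 11, 60199089 to 60222581, minus strand) lay at 101.4, 83.2, 79.4 and 86.2 CPM and at 123.2, 124.9, 138.9, 125.8 and 129.8 CPM, 1.47-fold higher (log2 0.55 ± 0.08, SE, adjusted p = 0.00112). Neither gene's groups overlapped. Per kilobase of exon, the ratio of Srebf1 to Srebf2 was 1.12 ± 0.0578 in the controls and 2.67 ± 0.569 in the libraries labelled knockout, with a range of 1.08 to 1.20 in the former and 1.95 to 3.32 in the latter. Replicates 2 and 3 had the lowest Srebf2 values, and without them the Srebf2 log2 fold change was -0.48 (edgeR adjusted p = 0.0186). Gene-level counts do not tell the Srebf1 isoforms apart, and Srebf1 shares 109 exon bases with Rai1 on the other strand.

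Insig1, itself a known SREBP target that retains Scap, fell while its paralog Insig2 did not change detectably. Insig1 lay at 53.6, 42.7, 39.9 and 28.6 CPM and at 18.8, 18.1, 10.7, 32.1 and 26.4 CPM (log2 -0.96 ± 0.29, SE, edgeR adjusted p = 0.0351). Control replicate 4 lay below labelled knockout replicate 4, and the call ended without control replicate 1, 2 or 3 or labelled knockout replicate 1 or 2 (edgeR adjusted p between 0.0686 and 0.102). Without labelled knockout replicates 2 and 3 together, Insig1 stood at log2 -0.67 (edgeR adjusted p = 0.0668). Insig2 lay at 32.7 ± 2.24 and 32 ± 2.44 CPM (log2 -0.03 ± 0.08, SE). Scap rose from 66.5 ± 8.91 to 81.3 ± 6.38 CPM at an edgeR adjusted p of 0.0495, with overlap, and lost the call when any 1 library but control replicate 3 was left out (0.0535 to 0.146), and also without labelled knockout replicates 2 and 3 together (log2 0.31, 0.0779).

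Stard4, which carries cholesterol between membranes and is a known SREBP target, had the smallest p of the 31 genes. It lay at 132.5, 121.0, 106.0 and 132.7 CPM in the controls and at 53.1, 34.9, 44.1, 40.1 and 49.2 CPM in the libraries labelled knockout. Every library labelled knockout lay at or below 53.1 CPM and every control at or above 106.0 CPM, a 2.78-fold fall (log2 -1.47 ± 0.13, SE, edgeR adjusted p = 5.56e-05).

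**Figure D3:**
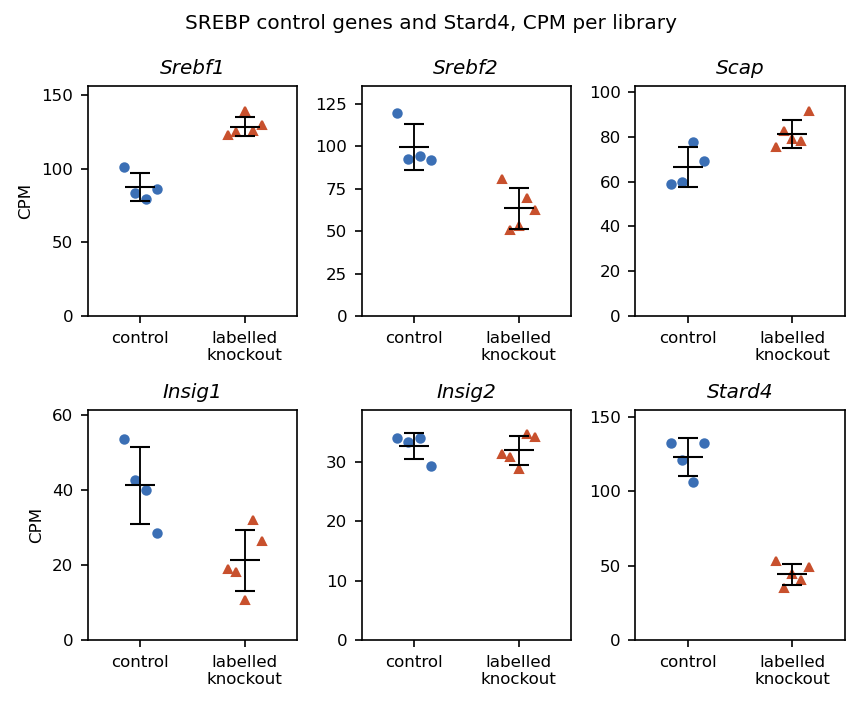
CPM per library of Srebf1, Srebf2, Scap, Insig1, Insig2 and Stard4, with circles for the 4 controls, triangles for the 5 libraries labelled knockout and bars for the mean and SD. The groups stand apart for Srebf1, which is higher, and for Srebf2 and Stard4, which are lower, and they overlap for Scap, Insig1 and Insig2.

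The 7 fatty acid genes split, with 2 higher, 1 lower and 4 not past the threshold, and the steps that lengthen and desaturate fatty acids differed most. Elovl6 (chromosome 3, 129532355 to 129638495, plus strand), which elongates palmitate to stearate, lay at 7.20, 6.5, 6.90 and 6.74 CPM and at 1.76, 1.39, 2.81, 1.69 and 1.60 CPM. This was the largest fold fall of the 31 genes, 3.68-fold without overlap (log2 -1.88 ± 0.21, SE, edgeR adjusted p = 0.000233). Scd2 (chromosome 19, 44293674 to 44306864, plus strand), a stearoyl-CoA desaturase, lay at 84.4, 64.0, 57.2 and 66.0 CPM and at 121.3, 189.8, 220.4, 103.7 and 137.4 CPM, 2.28-fold higher without overlap (log2 1.19 ± 0.23, SE, adjusted p = 0.00417). Replicates 2 and 3 were the highest, and without them the Scd2 log2 fold change was 0.84 (edgeR adjusted p = 0.00266).

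Scd1, the neighbouring desaturase gene that hepatocytes express strongly, had a similar estimate and did not pass. It lay at 12.5, 6.93, 1.99 and 3.66 CPM and at 11.6, 27.7, 12.2, 12.4 and 12.8 CPM (log2 1.29 ± 0.50, SE, edgeR adjusted p = 0.0807). Only control replicate 1 reached the libraries labelled knockout, and the call was made without it (edgeR adjusted p = 0.0229). Scd1 was also called by DESeq2 (0.0196), by limma-voom (0.0377) and by edgeR with a term for the sex of each library (0.0232). The high values of control replicate 1 and labelled knockout replicate 2 fell in the libraries with the highest macrophage sums, 393.0 and 550.1 CPM, and the part of those cells was not tested. Scd1 and Scd2 are similar in sequence, and reads may be split between them.

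Of the enzymes that make palmitate itself or supply its precursors, Acaca rose and Acly, Fasn and Me1 did not pass the test. Acly, which makes cytosolic acetyl-CoA from citrate, lay at 211.2 ± 14.2 and 196.1 ± 20.0 CPM (log2 -0.11 ± 0.09, SE). Acaca, the acetyl-CoA carboxylase, lay at 9.75, 11.1, 8.13 and 11.1 CPM and at 12, 14.3, 12.4, 13.1 and 13.1 CPM, higher without overlap (log2 0.38 ± 0.12, SE, edgeR adjusted p = 0.0359), a call that ended without control replicate 1 or 3 or labelled knockout replicate 2, 4 or 5 (0.0597 to 0.0914), or without replicates 2 and 3 together (log2 0.35, 0.0884). Fasn, the fatty acid synthase, lay at 9.88, 9.78, 6.52 and 14 CPM and at 8.89, 15.3, 20.9, 4.71 and 7.55 CPM. Its estimate turned from 0.19 ± 0.41 (SE) to -0.50 without replicates 2 and 3 (edgeR adjusted p = 0.231), so no direction can be given. Me1, a malic enzyme that supplies NADPH, lay at 0.757 ± 0.277 and 0.578 ± 0.145 CPM and did not pass.

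**Figure D4:**
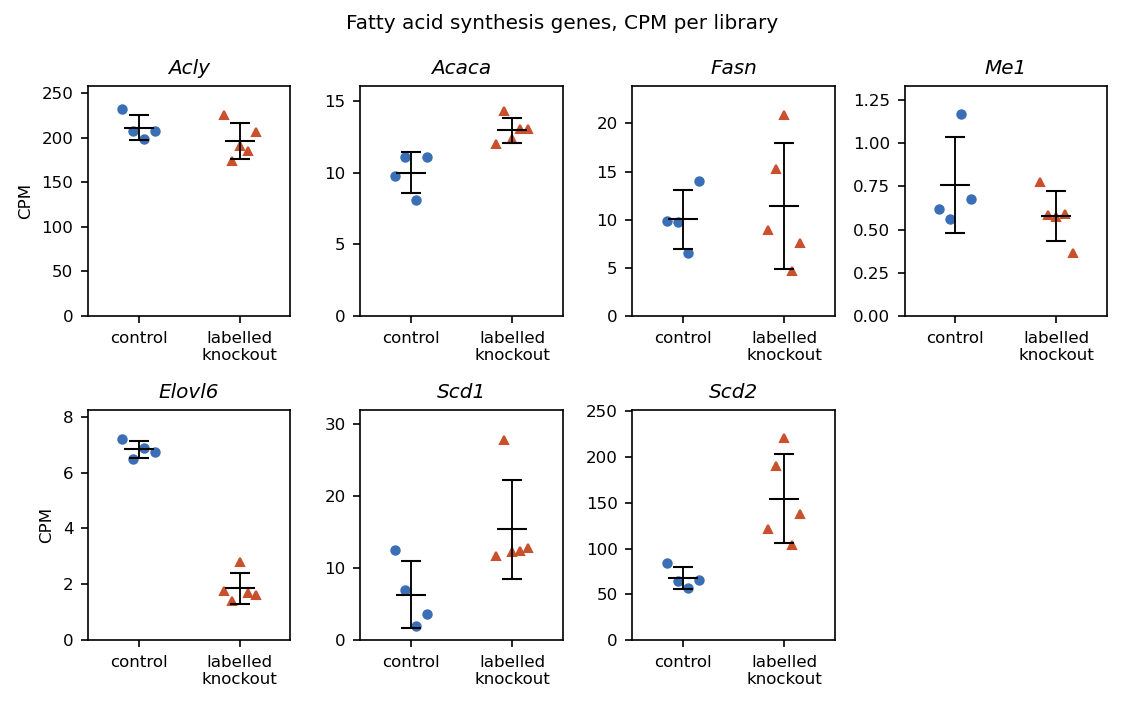
CPM per library of the 7 fatty acid synthesis genes, with circles for the 4 controls, triangles for the 5 libraries labelled knockout and bars for the mean and SD. Elovl6 is lower and Scd2 and Acaca are higher with no overlap, Scd1 overlaps only through 1 control, and Fasn is widely spread among the libraries labelled knockout.

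Per kilobase of exon, levels could be compared between genes. In the controls Acly stood highest at 40.0 RPKM, followed by Stard4 at 22 and Srebf1 at 15.5, and Lss (0.177), Me1 (0.197) and Fdps (0.220) stood lowest. In the libraries labelled knockout Acly was again highest at 37.1 RPKM, but Scd2 came next at 28.3 in place of 12.4, and Stard4 fell from the second to the eighth place at 7.93. These lengths count all annotated exons and so understate genes with long rare isoforms. The Fdps level may also be understated, because reads of the exon bases it shares with Gm43738 may have been left uncounted.

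Around the 31 genes, 81 of 83 other genes of the pathway were tested, in 6 lists. Of these 13 rose and 10 fell, 16% and 12.3%, near the 14.5% and 14.8% of all genes. The isoprenoid branch, which uses the same precursors for prenylation, ubiquinone and dolichol, had 0 of 14 genes past the threshold in edgeR, DESeq2 and limma-voom. At an unadjusted p under 0.05, where all genes were not counted, it had 1 lower and 0 higher. The median log2 fold change of that list was -0.03. Of the 12 genes for SREBP cleavage and sterol-sensing degradation, 2 rose and 1 fell. Mbtps1, the first protease that cleaves SREBP, rose from 145.4 ± 10.2 to 197.6 ± 23.6 CPM without overlap, and Erlin1, an endoplasmic reticulum protein of the degradation machinery, fell from 33.9 ± 2.09 to 21.5 ± 1.92 CPM. Ufd1, a partner of the extracting ATPase, rose 1.17-fold, a call that ended without any 1 of the 4 controls (edgeR adjusted p between 0.0558 and 0.0663).

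LXR nuclear receptors sense oxysterols and are known for raising sterol efflux, and 3 of 9 genes on their list rose and 2 fell. The phospholipid enzyme gene Lpcat3 rose from 51.9 ± 2.06 to 78.7 ± 7.73 CPM without overlap. The efflux transporter gene Abcg1 fell from 214.3 ± 17.5 to 134.7 ± 27.3 CPM and Arl4c, a small GTPase, fell from 53.1 ± 12.1 to 25.6 ± 7.67 CPM. Mylip, a ligase that degrades lipoprotein receptors, rose from 433.7 ± 53.5 to 684.8 ± 187.0 CPM, a call lost without any 1 control or without labelled knockout replicate 1, 4 or 5 (edgeR adjusted p between 0.0620 and 0.0908). The fifth, the efflux transporter gene Abca1, named after its values were seen, rose from 126.0 ± 36 to 268.0 ± 116.3 CPM with the highest values in replicates 2 and 3 (424.1 and 330.2 CPM), and its call ended without control replicate 1, 2 or 4 or labelled knockout replicate 2, 3 or 5 (edgeR adjusted p between 0.0582 and 0.106). Without replicates 2 and 3 together Abca1 stood at log2 0.64 (edgeR adjusted p = 0.144).

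Sterol uptake, transfer and esterification genes had 3 higher and 0 lower of 11 tested in edgeR and in limma-voom, and 3 and 1 in DESeq2. At an unadjusted edgeR p under 0.05, where all genes were not counted, the counts were 4 and 2. The 3 that rose in edgeR are known to move cholesterol out of lysosomes or from the plasma membrane inward. Npc1, the lysosomal exporter, rose from 65.3 ± 2.33 to 93.9 ± 7.46 CPM, Gramd1a from 249.3 ± 39.6 to 393.8 ± 43.4 CPM and Gramd1b from 56.3 ± 3.76 to 78.0 ± 15.9 CPM. The Gramd1b call ended without any 1 control or without labelled knockout replicate 2 (edgeR adjusted p between 0.0509 and 0.0771).

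The list of other fatty acid and glycerolipid synthesis genes had 3 higher and 6 lower of 24. It held a pair of related genes, Thrsp and Mid1ip1, whose products are known to modulate acetyl-CoA carboxylase. Thrsp lay at 9.95, 8.37, 5.67 and 6.76 CPM and at 1.13, 1.27, 0.468, 0.184 and 0.0334 CPM, a fall of 12.4-fold (log2 -3.63 ± 0.66, SE, edgeR adjusted p = 0.00334), while Mid1ip1 rose from 19.0 ± 2.65 to 47.5 ± 11.5 CPM (log2 1.32 ± 0.18, SE, adjusted p = 0.000585). Neither gene's groups overlapped. Thrsp was lowest in the library with the lowest hepatocyte sum, labelled knockout replicate 5 (23.5 CPM). It was next lowest in replicate 4, which had the highest hepatocyte sum of its group (213.9 CPM). Replicate 2, with a sum of 100.1 CPM, had the highest Thrsp value of its group. The part of hepatocyte RNA was not tested. Fads2, the desaturase that starts the synthesis of long polyunsaturated fatty acids, fell from 24.6 ± 4.53 to 12.5 ± 2.48 CPM, and Mlx, a partner of the carbohydrate-response factor, rose from 26.5 ± 2.45 to 37.4 ± 1.66 CPM. Fatty acid oxidation genes had 2 higher and 1 lower of 11: the trifunctional protein genes Hadha and Hadhb rose 1.25-fold and 1.33-fold, and Acadm, a medium-chain dehydrogenase, fell 1.26-fold.

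**Figure D5:**
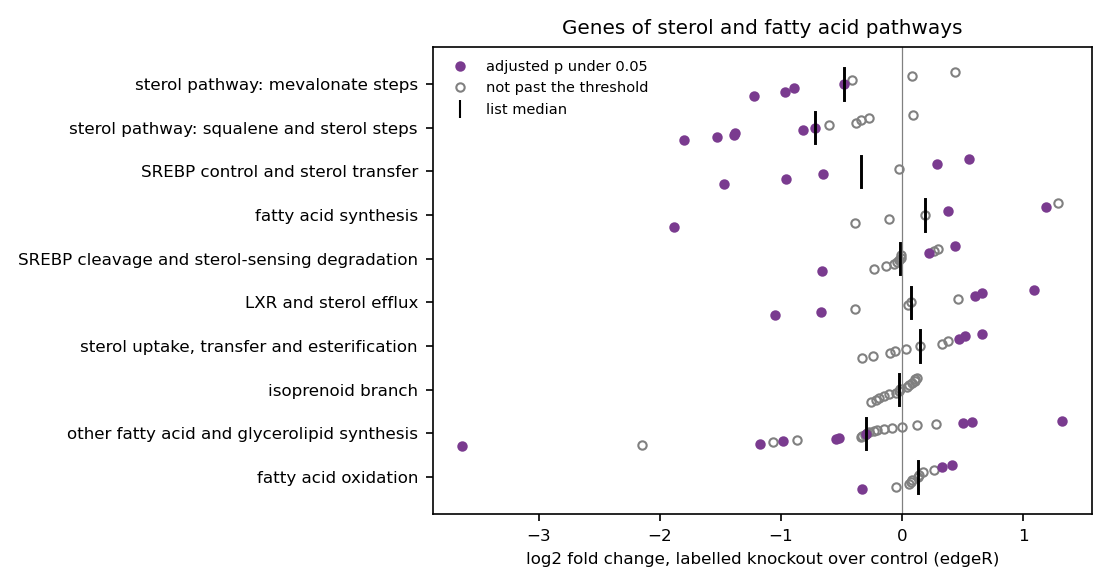
Log2 fold change (edgeR, labelled knockout over control) of each tested gene of the 4 groups of chosen genes and the 6 lists around them, with filled points for an adjusted p under 0.05 and a bar at each list's median. The sterol enzyme groups have medians of -0.48 and -0.72, and the isoprenoid branch lies close to 0 throughout.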

How the data were processed

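Polyadenylated RNA of 9 libraries was sequenced; the labels name 2 library kits, 1 of them stranded, without saying which library had which. The deposited table holds raw gene counts; the submitters' processing notes name STAR 2.7.6a, FastQC 0.11.5 and GRCm38, and no source used here names the counting program or its strand setting. Groups came from the labels. Genes were kept by edgeR's filterByExpr (minimum count 10, total 15), normalised by TMM and compared by the quasi-likelihood test of edgeR 4.0.16 (robust, 4 controls against 5, Benjamini-Hochberg over 14583 genes, R 4.3.3). Alternatives were DESeq2 1.42.0, limma-voom 3.58.1, other scalings and filters, a replicate block, a sex term and left-out libraries. Totals were 26791371 to 36401682 counts, so 1 count is 0.026 to 0.0368 CPM. On simulated data for this comparison (14341 genes), 70 of 98 changes of 2-fold and 93 of 94 of 4-fold were recovered, with 5 false calls. Far fewer genes were changed there than the 29.3% called in the data, and the spread of each gene was set to the fitted trend. These rates may therefore differ from those in the data. Coordinates and exon lengths are from GENCODE (GRCm38). The genes and lists were chosen with earlier results of these data known. Pathway genes outside the 31 were named as the 4 of smallest adjusted p per list among those called. The labels do not say that libraries are separate mice, so p-values measure the spread between these libraries. Some genes of the pathway are not reported here.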

Additional observations from a re-analysis of the deposited data

Results flagged for a closer look

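In 74 groups of libraries (each of the 31 genes and 6 sums, by group), 5 had 1 library far from the others, and chance gives about 1 in 20. Control replicate 1 was high for Srebf2 at 119.9 CPM and for the sum of the 5 SREBP control genes and Stard4 at 500.3 CPM. Control replicate 4 was low for Insig2 at 29.4 CPM. Among the libraries labelled knockout, replicate 3 was high for Elovl6 at 2.81 CPM and replicate 2 was high for Scd1 at 27.7 CPM.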

How the results depend on the processing

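Of the 18 genes called, 10 kept direction and call in all 18 alternatives, Cyp51 kept them in the 17 that tested it (it did not pass the filter of 5 CPM), and 0 reversed. The calls that were lost in some were those of Scap (12 alternatives), Fdps (10), Insig1 (9), Idi1 (8), Acaca (8), Sqle (2) and Hsd17b7 (1). With no count filter, with the replicate block or without labelled knockout replicates 2 and 3 together, 2 of the 31 genes were higher in place of 4. Leaving out 1 library gave 2 to 3 higher (2 without labelled knockout replicate 2, 4 or 5), 10 to 14 lower, and a median log2 fold change of -0.51 to -0.42. With a filter of 5 CPM in 4 libraries, which left 22 of the 31 genes and 10 of the 18 enzymes, 9 genes and 5 enzymes were lower and the median was -0.31. Numbers of the labels did not pair the libraries (correlations of same-numbered libraries from -0.319 to 0.211, and 1 of 4 controls closest to its own number). The fit with the replicate block called 1296 genes higher and 1375 lower over all genes, and 10 of the 31 genes and 7 enzymes lower. Outside the 31 genes, the calls of Mbtps1 (edgeR adjusted p = 0.0577), Acadm (0.0593), Fli1 (0.0639), Abca1 (0.0722), Ufd1 (0.114) and Mylip (0.144) ended with that block. Judged from Xist and Ddx3y, 3 controls were male and 1 female, and 2 libraries labelled knockout were male and 3 female. With a sex term 11 of the 31 genes were lower, 8 of them enzymes, and 4 were higher. The calls of Idi1 (edgeR adjusted p = 0.0721), Fdps (0.0672), Insig1 (0.0509) and Scap (0.0928) ended, and Scd1 was called higher (log2 1.79, 0.0232). Outside the 31 genes, the calls of Mylip (0.0823) and Abca1 (0.0658) ended with the sex term. The cause of these shifts was not tested, apart from the fewer genes tested under the filter. Genes near 1 CPM (Idi1, Fdps, Sqle, Lss and Me1) are limited by their low counts.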

Other observations

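Vldlr, a lipoprotein receptor gene on the uptake list, did not pass the filter on low counts and was not tested. It had 3 counts in the 4 controls and 280 in the 5 libraries labelled knockout, with 2.68 and 4.60 CPM in replicates 2 and 3 and at most 0.267 CPM in the other 3.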
